A study of Rattus norvegicus with 6 samples.

Results

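The Wnt pathway was examined through 48 of the 14506 genes measured in primary cultures from rat testis, which the labels name as Sertoli cells. The 48 were taken by symbol and comprise the measured Wnt ligands, the Frizzled (Fzd) receptors with Lrp5 and Lrp6, the R-spondins with Lgr4 and Lgr5, the secreted antagonists of the Sfrp and Dkk families with Wif1, and the intracellular genes Ctnnb1, Axin1, Axin2, Lef1, Tcf7 and Tcf7l1. Cells were isolated from the testes of 21-day-old rats (3 arrays), labelled as past the phase of proliferation, and of 9-day-old rats (3 arrays), labelled as within it. Both ages were cultured alike in DMEM/F12 with fetal bovine serum at 10%, and a change of medium served to rid the Sertoli cells of other cells. The labels name no strain, genotype or agent. Nor do they tell if each replicate is a rat or culture of its own, so a p-value here reflects the scatter of 6 samples that may be technical. Each gene is given as a log2 value, the summarised signal of the probes of its transcript, so that a difference of 1 is a 2-fold difference.

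Wnt proteins are secreted lipid-modified ligands that bind Frizzled receptors. Together with the coreceptors Lrp5 and Lrp6 they protect beta-catenin from the destruction complex, and beta-catenin then enters the nucleus and acts with the TCF and LEF factors. Other Wnts signal without beta-catenin and steer cell shape and migration. In the gonad, Wnt4 and Rspo1 are known for their part in ovarian fate, and in the mouse sustained beta-catenin activity in Sertoli cells disturbs the testis.

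The signals of the 48 genes were mostly in the lower or middle range of the arrays. Of these genes 26 lay below the median gene, and 8 lay above the 75th percentile: Ctnnb1, Sfrp1, Fzd2, Lgr4, Lrp6, Axin1, Fzd1 and Sfrp2. Probe sets differ in their response, so these ranks are a guide to strong or weak signal and not to amounts of transcript, and no detection calls were used here. Of 21 measured markers of Sertoli cells, the labelled cell type, 11 lay below the median gene. Above the 75th percentile were 5, Clu, Gata4, Tjp1, Tf and Wt1. Wt1 averaged 7.20 ± 0.24 in 21-day-old cultures and 6.98 ± 0.056 in 9-day-old cultures (log2, SD, n = 3 each). Gata4 averaged 7.93 ± 0.33 in 21-day-old cultures and 8.11 ± 0.11 in 9-day-old cultures, and both lay above that percentile. Amh averaged 3.35 ± 0.12 in 21-day-old cultures and 3.14 ± 0.09 in 9-day-old cultures (SD, n = 3 each). Fshr averaged 2.89 ± 0.51 in 21-day-old cultures and 2.57 ± 0.13 in 9-day-old cultures, and both genes lay below the array medians of 3.78 to 3.87. The 15 markers of fibroblasts and stroma had a list mean of 8.26 to 8.81 in 21-day-old cultures and of 8.53 to 8.61 in 9-day-old cultures, and none of the 15 lay below the median gene. Of 13 measured markers of peritubular myoid and smooth muscle cells 1 lay below it.

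No Wnt gene differed between the ages by the test across all genes. In limma, 0 of the 48 had a Benjamini-Hochberg adjusted p under 0.05, as did 0% of the 14506 genes, and the adjusted p of each of the 48 was 1.00. By sign 24 of the 48 were higher and 24 lower in 21-day-old cultures, with a median log2 difference of -0.0034, against -0.0093 over all genes, of which 46.7% were higher. The largest differences were those of the ligands Wnt5a (-0.81) and Wnt2 (0.56). No Wnt gene reached a 2-fold difference, which 0.427% of all genes did, and these 2 were the only ones at or above 0.5 in size, against 2.25% of all genes. The typical precision was an SE of 0.126 for a Wnt gene and 0.112 for any gene (medians).

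Before adjustment, 4 of the 48 had a p under 0.05 in limma, against 2.97% of all genes. Wnt2 and Dkkl1 were higher in 21-day-old cultures, as were 1.45% of all genes by this measure, and Wnt5a and Ctnnb1 lower, as were 1.52%. For 4 of the 48 the 3 arrays of one age all lay above the 3 of the other, against 5.72% of all genes. These were Wnt2 and Dkkl1, higher (2.74% of all genes), and Ctnnb1 and Rspo1, lower (2.98% of all genes). With 3 arrays a side, an exact permutation test of any single gene cannot give a two-sided p below 0.10. Arrays with the same replicate number in the titles deviated together, and with that number as a block the unadjusted count was 8 of 48, against 7.73% of all genes, with 0 still passing after adjustment (lowest adjusted p = 0.387). Those 8 were Wnt2, Dkkl1 and Tcf7, higher (3.29% of all genes), and Wnt5a, Ctnnb1, Wnt2b, Fzd2 and Dkk3, lower (4.45% of all genes). In 15 of the 48 the difference had the same sign in all 3 pairs of arrays, against 25.2% of all genes, 6 of them higher, against 10.7%, and 9 lower, against 14.4%.

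**Figure D1:**
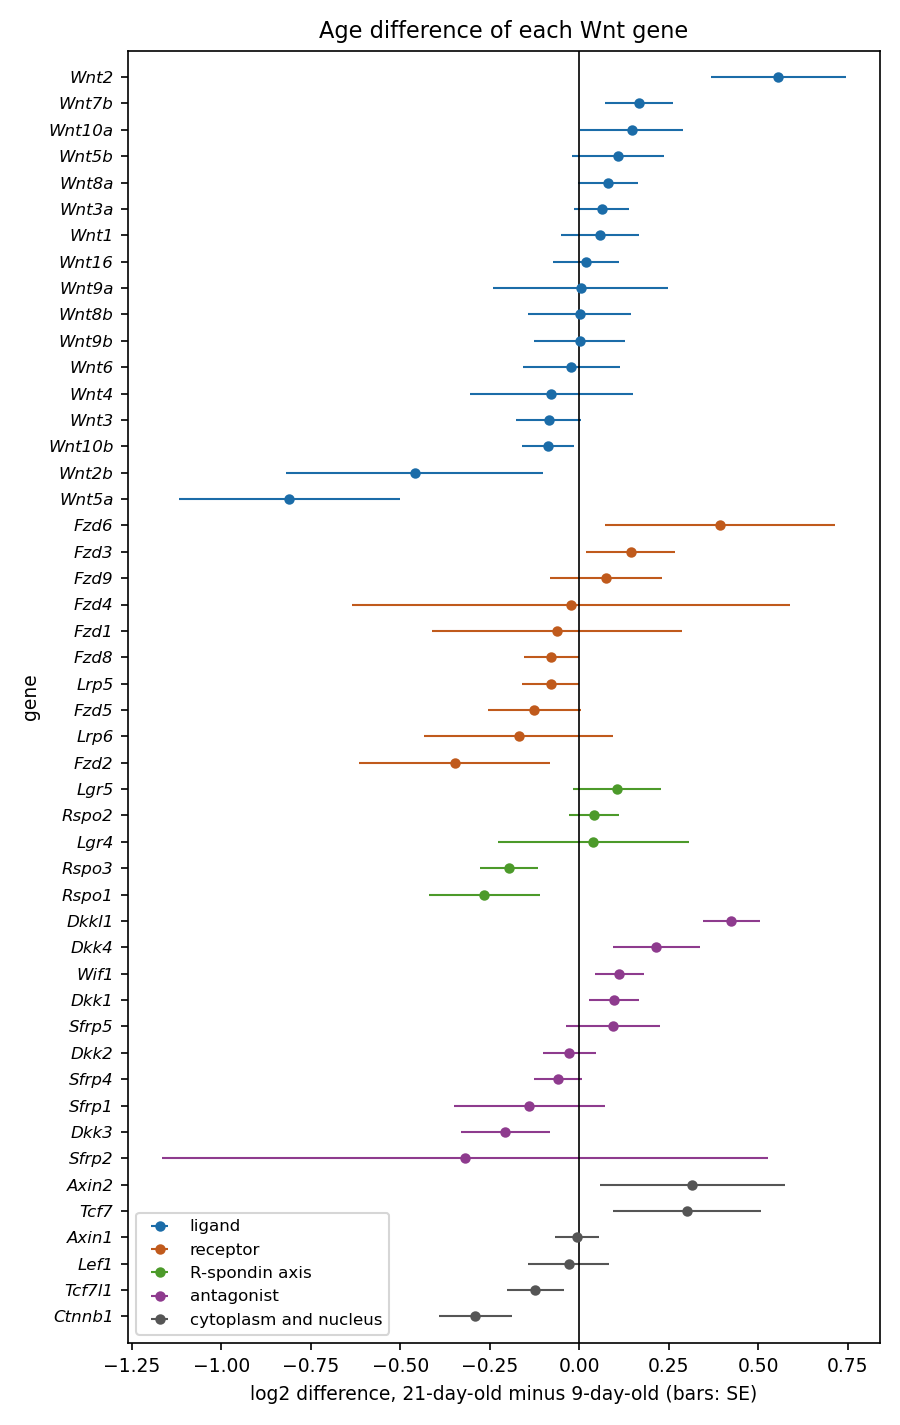
Log2 difference of each of the 48 Wnt genes, 21-day-old minus 9-day-old (x axis), by role from ligands at the top to intracellular genes at the bottom, with bars of 1 SE. Most points lie within 0.25 of 0, Wnt5a stands lowest at -0.81 and Wnt2 highest at 0.56, and the bar of Sfrp2 is the widest.

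The ligand Wnt5a, which signals mainly without beta-catenin, had the largest difference of the 48 genes. It was at 4.84, 4.90 and 5.64 in 21-day-old cultures and at 5.42, 6.18 and 6.21 in 9-day-old cultures (log2, replicates 1 to 3). The third replicate at 21 days lay above the first at 9 days, so the ages overlapped, yet within each pair of the same number the older culture was lower, by -0.58, -1.29 and -0.57. The difference was -0.81 ± 0.31 (SE), or 0.570 of the 9-day-old level, with a 95% interval from -1.57 to -0.051 and an unadjusted p of 0.040 in limma. The difference stayed between -1.07 and -0.67 when any 1 array was left out, while the unadjusted p in limma then ran from 0.012 to 0.128.

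Wnt2, a ligand of the beta-catenin branch, stood at the opposite end. It was at 5.15, 5.58 and 4.88 in 21-day-old cultures and at 4.59, 4.79 and 4.55 in 9-day-old cultures. Every older culture lay above every younger one. The difference was 0.56 ± 0.19 (SE), 1.47-fold, with a 95% interval from 0.094 to 1.02 and an unadjusted p of 0.026 in limma. It was 0.37 without 21-day-old replicate 2, the highest of the arrays. When any 1 array was left out, the unadjusted p in limma ran from 0.0066 to 0.078. The 250 bases before the RefSeq start of both ligand genes, which differed most and in opposite directions, are given here 5′ to 3′ on the gene's strand (GRCr8, chr16:3703415-3703664, plus strand, for Wnt5a and chr4:47340285-47340534, minus strand, for Wnt2).
Wnt5a: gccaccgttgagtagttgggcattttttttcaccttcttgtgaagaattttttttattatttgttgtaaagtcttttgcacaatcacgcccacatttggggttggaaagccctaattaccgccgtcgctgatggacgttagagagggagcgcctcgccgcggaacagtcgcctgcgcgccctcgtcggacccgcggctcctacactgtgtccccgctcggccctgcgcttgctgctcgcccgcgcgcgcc
Wnt2: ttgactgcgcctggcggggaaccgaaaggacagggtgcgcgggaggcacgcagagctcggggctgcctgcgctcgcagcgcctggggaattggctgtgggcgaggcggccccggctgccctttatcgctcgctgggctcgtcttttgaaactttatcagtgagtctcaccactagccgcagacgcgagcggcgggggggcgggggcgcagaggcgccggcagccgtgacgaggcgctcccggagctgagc
Neither window held CTTTGAT, the letters searched on both strands as the core of the TCF and LEF motif, and so neither has capitals. The window of Wnt2 has 70.4% G and C and that of Wnt5a 57.2%, against a median of 51.2% over the 33469 promoters in the table. That table was not limited to measured genes.

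The other ligands differed less. Wnt2b was at 2.87, 3.07 and 3.68 in 21-day-old cultures and at 3.35, 3.28 and 4.37 in 9-day-old cultures, with the third replicate highest at both ages. Its difference of -0.46 ± 0.36 (SE) had an unadjusted p of 0.248 in limma and of 0.0098 with the replicate block. Wnt4, which is turned down in the mouse gonad as Sertoli cells form, was at 5.81, 6.16 and 6.41 in 21-day-old cultures and at 5.88, 6.16 and 6.57 in 9-day-old cultures. The replicates of Wnt4 spanned more than the ages did, and the difference was -0.078 ± 0.23, with a 95% interval from -0.64 to 0.48. The differences of the remaining 13 ligands ran from -0.088 for Wnt10b to 0.17 for Wnt7b. They include the beta-catenin ligands Wnt1, Wnt3 and Wnt3a, at 0.058, -0.085 and 0.062, and Wnt9a and Wnt9b, at 0.0034 and 0.00046. Of all 17 ligands 11 were higher and 6 lower in 21-day-old cultures, and 12 had signals below the median gene.

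**Figure D2:**
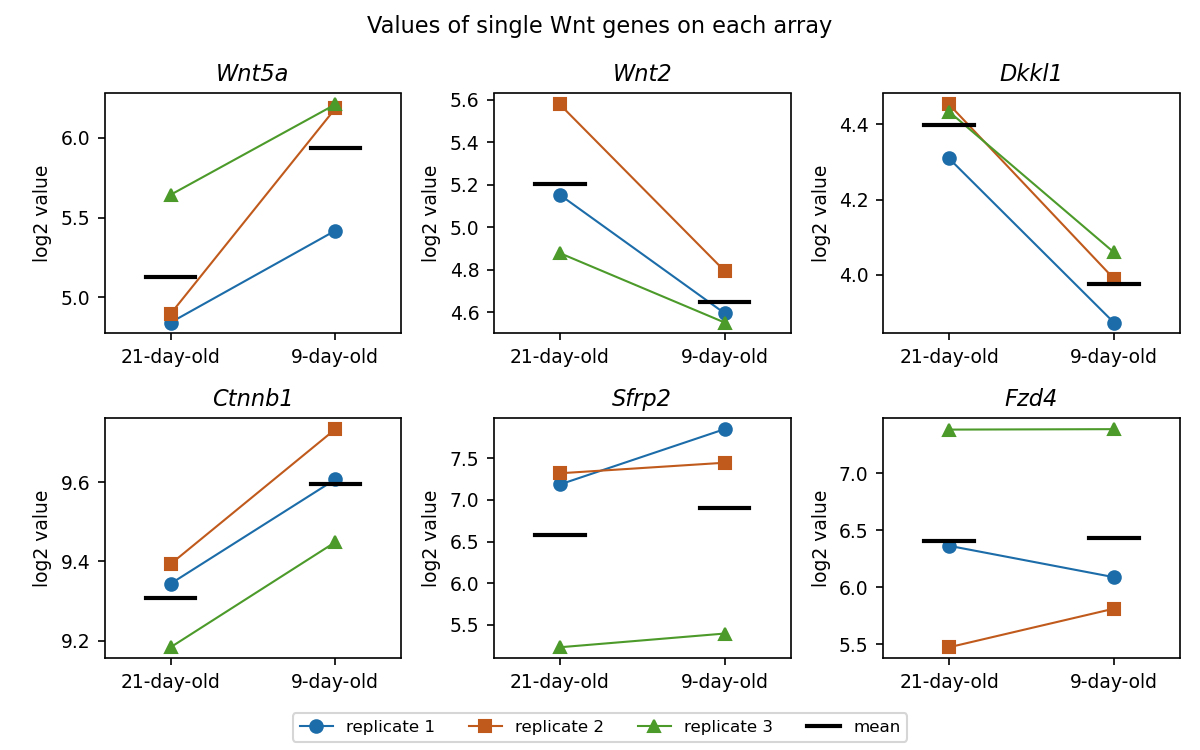
Log2 values (y axis, a scale of its own in each panel) of 6 Wnt genes on each array, with 21-day-old cultures on the left and 9-day-old cultures on the right, lines joining arrays of the same replicate number and black bars at the means. Wnt2 and Dkkl1 lie higher and Wnt5a and Ctnnb1 lower at 21 days within every pair, while Sfrp2 and Fzd4 differ mainly by replicate number, with means at 21 days of 6.58 for Sfrp2 and 6.41 for Fzd4 and at 9 days of 6.90 for Sfrp2 and 6.43 for Fzd4.

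Among the receptors 3 of 10 were higher and 7 lower in 21-day-old cultures, with a median difference of -0.070, and none had an unadjusted p under 0.05 in limma. Fzd6, which acts in planar cell polarity, had the largest difference, 0.39 ± 0.32 (SE). It was at 5.30, 4.98 and 6.22 in 21-day-old cultures and at 5.21, 4.94 and 5.18 in 9-day-old cultures, so that 21-day-old replicate 3 alone stood out. Fzd2 was at 6.88, 7.36 and 7.68 in 21-day-old cultures and at 7.41, 7.47 and 8.08 in 9-day-old cultures. Fzd2 was lower at 21 days in each pair and overlapped between the ages, and its difference of -0.35 ± 0.27 had an unadjusted p of 0.241 in limma and of 0.021 with the replicate block. The differences of Fzd3, Fzd5, Fzd8 and Fzd9 lay between -0.13 and 0.14.

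The coreceptors had small differences, with a wide interval for Lrp6 and a narrower one for Lrp5. Lrp6 was at 7.18, 6.84 and 7.71 in 21-day-old cultures and at 7.16, 7.30 and 7.77 in 9-day-old cultures, a difference of -0.17 ± 0.26 (SE) with a 95% interval from -0.82 to 0.48. Lrp5 was at 5.66, 5.61 and 5.66 in 21-day-old cultures and at 5.58, 5.80 and 5.78 in 9-day-old cultures. The difference of Lrp5 was -0.079 ± 0.080, with a 95% interval from -0.28 to 0.12.

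The R-spondins are secreted proteins that bind Lgr receptors and keep Frizzled receptors on the cell surface. Rspo1 was at 5.47, 5.47 and 5.34 in 21-day-old cultures and at 5.52, 5.52 and 6.03 in 9-day-old cultures. The ages did not overlap, but the gap between the nearest arrays was small and 9-day-old replicate 3 stood above the rest. Its difference was -0.26 ± 0.15 (SE), with an unadjusted p of 0.138 in limma, and -0.096 without 9-day-old replicate 3. Lgr4, a receptor of the R-spondins, was at 7.94, 6.90 and 7.63 in 21-day-old cultures and at 7.49, 7.32 and 7.54 in 9-day-old cultures. Its values at 21 days enclosed those at 9 days, and the difference was 0.039 ± 0.27. Lgr5, known from stem cells of the gut, had weak signals of 2.59, 2.81 and 2.37 in 21-day-old cultures and of 2.53, 2.39 and 2.53 in 9-day-old cultures, with a difference of 0.10 ± 0.12. Rspo2 differed by 0.042 ± 0.069, and Rspo3, also among the weak signals, by -0.20 ± 0.082 with an unadjusted p of 0.054.

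Of the 10 genes taken as antagonists 5 were higher and 5 lower in 21-day-old cultures. Dkkl1, chosen by its symbol, is related to the Dickkopf proteins and best known from the acrosome of spermatids rather than as an inhibitor of Wnt signals. It was at 4.31, 4.45 and 4.43 in 21-day-old cultures and at 3.87, 3.99 and 4.06 in 9-day-old cultures. The ages did not overlap, and the gap was wider than the spread within either age. Its difference of 0.42 ± 0.079 (SE), 1.34-fold, had the lowest unadjusted p of the 48 genes, 0.0019 in limma, and ran from 0.37 to 0.47 without any 1 array. The 17 measured markers of germ cells had list means of 3.20 to 3.45 in 21-day-old cultures and of 3.20 to 3.28 in 9-day-old cultures, 10 of them higher and 7 lower at 21 days. Log2 values set no zero, so no marker can be called absent, and the part of germ cells in the Dkkl1 difference was not tested.

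The Dickkopf antagonists proper, which block Lrp5 and Lrp6, showed small differences. Dkk3, which unlike the others is not a clear blocker of Wnt signals, was at 6.08, 6.20 and 5.81 in 21-day-old cultures and at 6.25, 6.36 and 6.11 in 9-day-old cultures. It was lower at 21 days in each pair while the ages overlapped, and its difference of -0.21 ± 0.12 (SE) had an unadjusted p of 0.148 in limma and of 0.037 with the replicate block. Dkk1, Dkk2 and Dkk4 had weak signals, none above 3.33, and differed by 0.096, -0.028 and 0.21. Wif1, which captures Wnt ligands, differed by 0.11 ± 0.069. Among the Sfrp genes, whose products resemble the ligand-binding part of Frizzled, Sfrp1 differed by -0.14 ± 0.21, Sfrp4 by -0.060 ± 0.067 and Sfrp5 by 0.095 ± 0.13.

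Ctnnb1, which encodes beta-catenin and serves both Wnt signalling and cadherin junctions, ranked highest of the 48 genes by signal and was lower in the older cultures. It was at 9.34, 9.39 and 9.18 in 21-day-old cultures and at 9.61, 9.73 and 9.45 in 9-day-old cultures. The ages did not overlap, and the pairs differed by -0.26, -0.34 and -0.27. The difference was -0.29 ± 0.10 (SE), or 0.818 of the 9-day-old level, with a 95% interval from -0.54 to -0.040 and an unadjusted p of 0.030 in limma. When any 1 array was left out, it ran from -0.36 to -0.22 and the unadjusted p in limma from 0.016 to 0.087. Axin1, the scaffold of the destruction complex, was at 7.32 on each of the 3 arrays of 21-day-old cultures and at 7.36, 7.25 and 7.37 in 9-day-old cultures. The difference of Axin1 was -0.0072 ± 0.062, with a 95% interval from -0.16 to 0.15. Values equal to the last deposited digit, as here, occurred between at least 2 arrays for 20 of the 48 genes and for 37.8% of all genes.

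Axin2, a negative regulator that beta-catenin itself induces in many tissues and that is often read as a reporter of the pathway, was at 5.28, 5.93 and 5.09 in 21-day-old cultures and at 5.43, 4.86 and 5.06 in 9-day-old cultures. The second replicate at 21 days was the highest and the other arrays of the ages were mixed. Its difference was 0.32 ± 0.26 (SE), with an unadjusted p of 0.267 in limma, and 0.066 without 21-day-old replicate 2. Of the 48 genes 32 had a promoter in the RefSeq table, which was not limited to measured genes. CTTTGAT occurred in the 250 bases before the start of 2 of these 32, Axin2 and Dkkl1, against 3.15% of all promoters of that table. Both windows are given 5′ to 3′ with the match in capitals, since they alone hold it (GRCr8, chr10:94398535-94398784, plus strand, for Axin2 and chr1:104835712-104835961, minus strand, for Dkkl1).
Axin2: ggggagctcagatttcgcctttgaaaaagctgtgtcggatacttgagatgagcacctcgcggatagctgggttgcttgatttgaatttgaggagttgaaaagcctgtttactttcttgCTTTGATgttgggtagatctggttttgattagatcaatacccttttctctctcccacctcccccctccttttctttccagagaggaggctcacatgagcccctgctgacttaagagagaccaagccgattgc
Dkkl1: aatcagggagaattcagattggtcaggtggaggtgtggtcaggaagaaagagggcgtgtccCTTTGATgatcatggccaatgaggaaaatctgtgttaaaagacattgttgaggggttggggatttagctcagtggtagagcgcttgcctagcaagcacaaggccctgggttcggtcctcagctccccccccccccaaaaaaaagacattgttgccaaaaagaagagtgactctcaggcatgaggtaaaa
The match begins at base -132 from the start in Axin2 and at base -189 in Dkkl1. A match is a description of the letters and not a shown site of binding.

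The TCF and LEF factors bind DNA and recruit beta-catenin. Tcf7 was at 4.95, 5.41 and 4.91 in 21-day-old cultures and at 4.88, 5.05 and 4.45 in 9-day-old cultures, higher at 21 days in each pair with overlap between the ages. Its difference was 0.30 ± 0.21 (SE), with an unadjusted p of 0.197 in limma and of 0.032 with the replicate block, and 0.13 without 9-day-old replicate 3. Lef1 was at 4.53, 4.65 and 4.83 in 21-day-old cultures and at 4.86, 4.63 and 4.60 in 9-day-old cultures, and its difference of -0.030 ± 0.11 turned sign between the pairs. Tcf7l1, which mostly represses, was at 5.99, 5.91 and 5.81 in 21-day-old cultures and at 6.12, 5.96 and 5.996 in 9-day-old cultures. Its difference was -0.12 ± 0.080. Tcf7l1 was the only one of the 48 genes with several probe sets, and the other 2 of its 3 differed by 0.052 and -0.19. The genes Tcf7l2, Wnt7a, Wnt11, Fzd7, Fzd10 and Rspo4 were not analysed here, since no single-gene probe set is named for them in the table used.

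**Figure D3:**
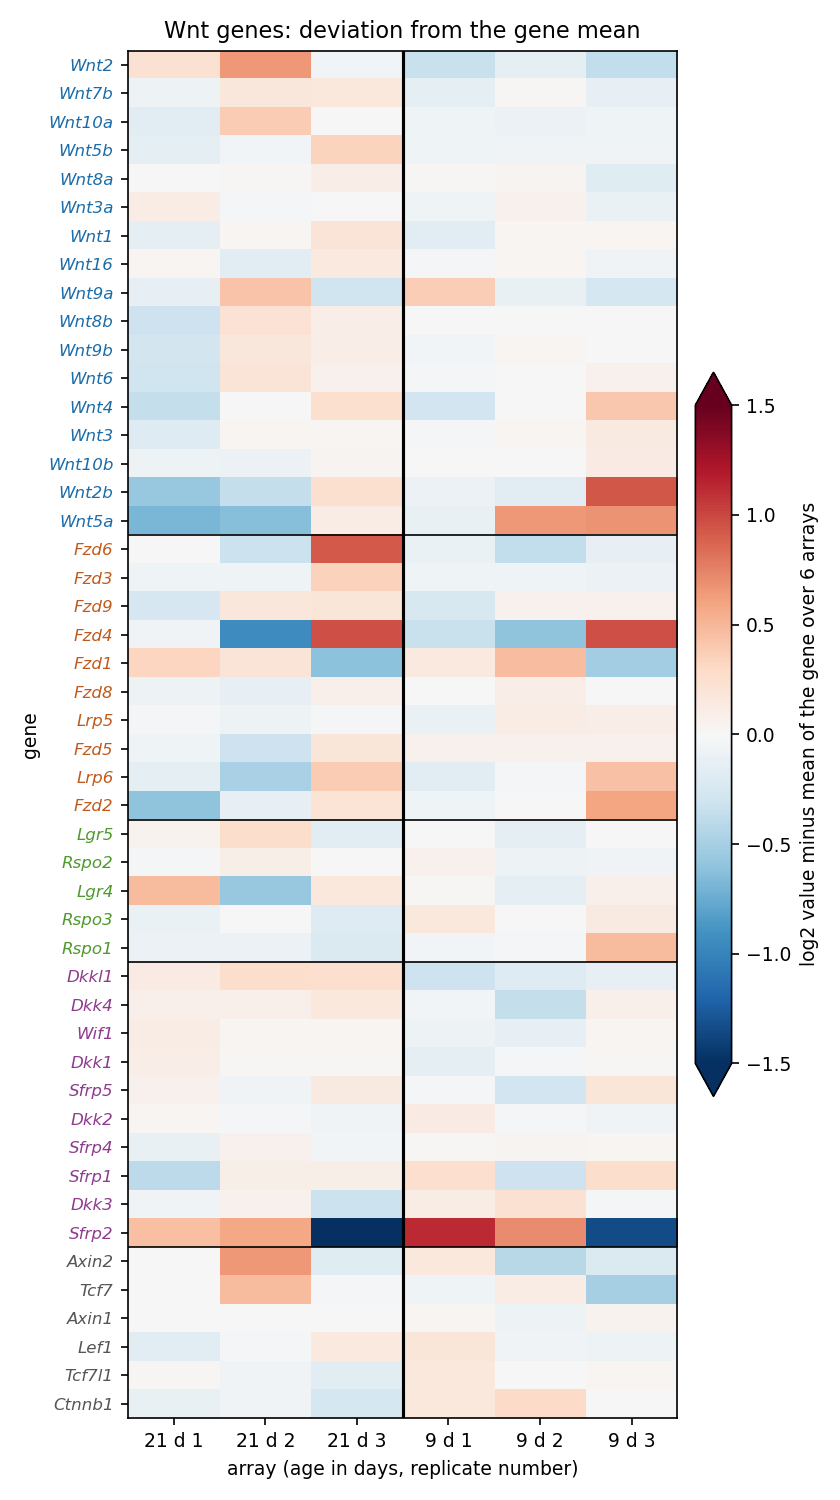
Deviation of each array from the gene's mean over the 6 arrays (colour, log2, limits at 1.5 either way), with genes in rows by role and arrays in columns, 21-day-old left of the line and 9-day-old right of it. Sfrp2 is darkest blue and Fzd4 dark red in the replicate 3 columns of both ages, Fzd6 is dark red in 21-day-old replicate 3 alone, and Wnt5a and Wnt2 differ across the line.

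Some Wnt genes were set apart on the arrays of 1 replicate number at both ages. On the arrays numbered 3, 6 of the 48 genes differed from the mean of the other 2 arrays by at least 0.5 with the same sign at both ages, against 5.40% of all genes. By the same measure 1 of the 48 was apart on the arrays numbered 1, against 1.19% of all genes, and 2 on those numbered 2, against 2.25%. The 6 genes are Fzd4, Wnt2b, Fzd2 and Lrp6, higher on the arrays numbered 3, and Sfrp2 and Fzd1, lower. They were named after their values had been seen.

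Sfrp2 was the most uneven of the 48 genes. It was at 7.19, 7.32 and 5.23 in 21-day-old cultures and at 7.85, 7.45 and 5.39 in 9-day-old cultures. Replicate 3 deviated from the mean of the others by -2.03 at 21 days and by -2.26 at 9 days, and the age difference was -0.32 ± 0.85 (SE). Sfrp2 was lower at 21 days in each pair, by -0.67, -0.13 and -0.16, and with the replicate block the SE was 0.13 and the unadjusted p 0.058 in limma. Fzd4, a receptor that serves blood vessel growth together with the ligand norrin, showed the reverse, at 6.36, 5.47 and 7.38 in 21-day-old cultures and at 6.09, 5.81 and 7.39 in 9-day-old cultures. On the arrays numbered 3 Fzd4 was higher by 1.47 at 21 days and by 1.44 at 9 days. Fzd1 deviated there by -0.88 at 21 days and by -0.83 at 9 days, and Wnt2b by 0.71 at 21 days and by 1.05 at 9 days. The replicate 3 deviations at the 2 ages correlated at r = 0.856 over the 48 genes and at 0.673 over all genes. Over the 26 Wnt genes with signals below the median gene r was 0.491, and over the other 22 it was 0.898. By sign 33 of the 48 deviated the same way at both ages, against 66.2% of all genes. These are descriptions across genes, which are not independent and share the normalization of the arrays.

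**Figure D4:**
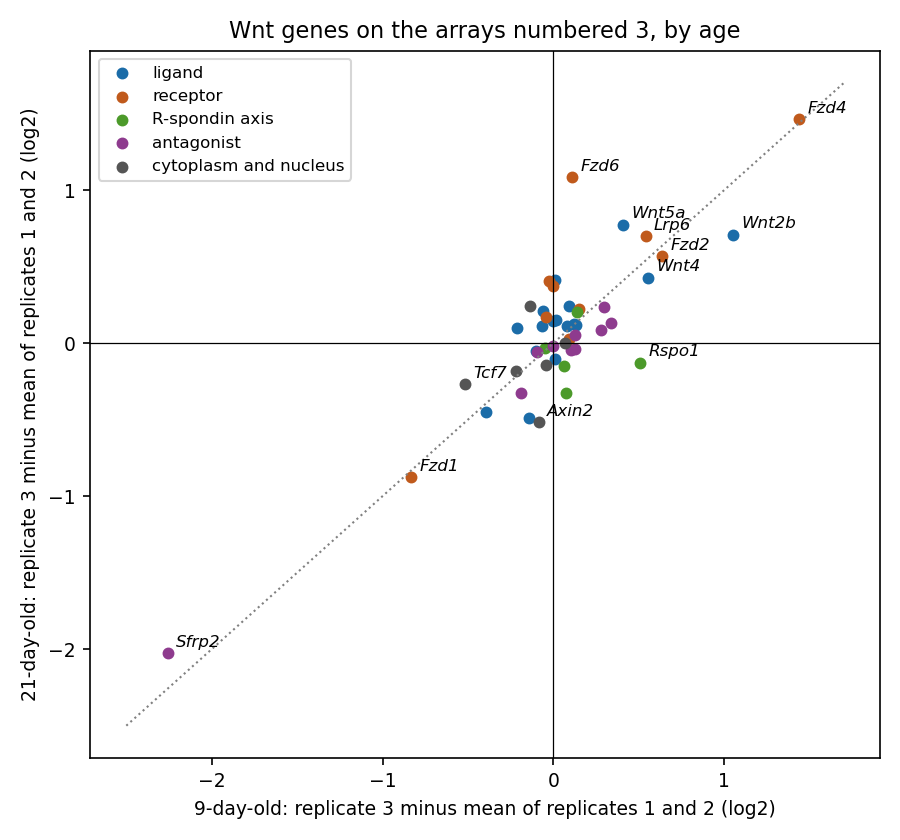
Deviation of replicate 3 from the mean of replicates 1 and 2 (log2) for each of the 48 genes, in 21-day-old cultures (y axis) against 9-day-old cultures (x axis), coloured by role, with the dotted line marking equal deviations. Sfrp2, Fzd1 and Fzd4 lie near the line far from 0. Fzd6, Wnt5a and Axin2 deviate by at least 0.5 at 21 days alone, and Rspo1, Wnt4 and Tcf7 at 9 days alone.

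On the arrays numbered 3, 12 of 13 measured markers of peritubular myoid and smooth muscle cells were apart by the measure above, against 5.40% of all genes. So were 3 of 15 fibroblast, 1 of 8 Leydig and 1 of 21 Sertoli cell markers, and 0 of 17 germ cell, 10 endothelial and 14 macrophage markers. By sign some lists leaned one way between the ages, though no marker passed an adjusted p under 0.05 in limma. The list of 15 markers of peritubular myoid and smooth muscle cells, 13 of them measured, had a mean of 9.27 in 21-day-old replicate 3, where the other cultures of that age had 8.19 and 7.68, and of 9.51 in 9-day-old replicate 3, where the others had 8.23 and 8.38. All 13 deviated on the arrays numbered 3 in the same direction at both ages, and Des, the muscle filament desmin, was at 10.53 there in 21-day-old and at 9.93 in 9-day-old cultures, against 7.12 to 8.85 elsewhere. By sign 12 of these 13 were lower at 21 days, but all 13 overlapped between the ages. Of the 15 fibroblast markers 11 were lower, 3 of them without overlap, against 2.98% of all genes. The largest differences of that list were 1.499 ± 0.88 (SE) for Dpt, 1.03 ± 0.40 for Thy1 and -0.73 ± 0.18 for Pdgfra. Of these, Pdgfra alone was without overlap. The 8 measured markers of Leydig cells, the steroid-making cells between the tubules, had list means of 4.53 to 4.65 in 21-day-old cultures and of 4.20 to 4.32 in 9-day-old cultures, without overlap. Of these, 6 were higher and 2 lower, with a median difference of only 0.077. The 3 of the 8 without overlap, all higher, against 2.74% of all genes, were Akr1c14 at 1.59 ± 0.43, Hsd11b1 at 0.98 ± 0.38 and Cyp11a1 at 0.17 ± 0.083. Of 21 measured markers of Sertoli cells 17 were higher at 21 days, 5 of them without overlap, against 2.74% of all genes. The largest differences of that list were 3.59 ± 0.78 (SE) for Tf, 2.28 ± 0.77 for Testin and 1.16 ± 0.61 for Shbg. The other 4 Sertoli markers were lower, and all 4 overlapped. Of 10 endothelial markers 5 were higher, and of 14 macrophage markers 6. The part of these cells in the differences of Wnt5a, Wnt2, Sfrp2, Fzd4 and the other Wnt genes was not tested, and fewer cells of a type and less RNA per cell cannot be told apart in such samples. Without both arrays numbered 3 the differences were -0.93 for Wnt5a, 0.67 for Wnt2, 0.45 for Dkkl1, -0.30 for Ctnnb1 and -0.053 for Rspo1.

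The rest of the pathway was read from 6 lists with 141 measured genes of 176, of which 0 passed an adjusted p under 0.05 in either direction in limma, with or without the replicate block. By sign 60 were higher and 81 lower in 21-day-old cultures, with a median difference of -0.016. The ages did not overlap for 6 of the 141, against 5.72% of all genes. These were Musk, Ppp2r5a and Cxxc4, higher (2.74% of all genes), and Gpc3, Plcb3 and Ephb2, lower (2.98% of all genes). Before adjustment 5 of the 141 had a p under 0.05 in limma, 2 of them higher and 3 lower, against 2.97% of all genes. With the replicate block 13 did, 7 of them higher and 6 lower, against 7.73% of all genes.

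Genes for the release and inactivation of Wnts, 7 measured, differed by 0.11 or less in size. The 3 largest differences were -0.11 ± 0.19 (SE) for the retromer gene Vps35, 0.10 ± 0.082 for the Wnt deacylase gene Notum and 0.092 ± 0.33 for Wls, which carries Wnts to the cell surface. Of 20 other receptors, regulators of receptors and antagonists 13 were higher and 7 lower. The glypican gene Gpc3 was at 4.26, 4.54 and 3.49 in 21-day-old cultures and at 4.86, 5.17 and 5.21 in 9-day-old cultures. It did not overlap and differed by -0.98 ± 0.28, with an unadjusted p of 0.014. Tspan12, a partner of Fzd4 in norrin signalling, was at 6.48, 6.71 and 7.42 in 21-day-old cultures and at 6.06, 6.23 and 6.60 in 9-day-old cultures, a difference of 0.57 ± 0.28. Ror2, a receptor for Wnt5a, was at 5.50, 5.97 and 5.57 in 21-day-old cultures and at 6.12, 5.91 and 6.03 in 9-day-old cultures. The difference of Ror2 was -0.34 ± 0.14, with an unadjusted p of 0.051.

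Of 30 genes of the Dishevelled proteins, the destruction complex and its regulators 9 were higher and 21 lower, and the median was -0.039. The largest differences were -0.29 ± 0.20 (SE) for Chd8, a chromatin remodeller that binds beta-catenin, 0.22 ± 0.063 for the phosphatase subunit gene Ppp2r5a, which did not overlap between the ages, and -0.17 ± 0.096 for Btrc, which marks beta-catenin for breakdown. Of 19 nuclear partners 7 were higher and 12 lower, with 0.38 ± 0.28 for the kinase gene Hipk2, -0.30 ± 0.18 for the corepressor gene Tle1 and -0.19 ± 0.12 for Bcl9l, a coactivator of beta-catenin. Of 32 genes of the planar cell polarity and calcium branches 10 were higher and 22 lower, with -0.38 ± 0.49 for the kinase gene Rock2, -0.28 ± 0.20 for the polarity gene Vangl1 and -0.20 ± 0.17 for the kinase gene Camk2d. Plcb3 of that list, without overlap between the ages, differed by -0.19 ± 0.059, with an unadjusted p of 0.017 in limma. Over all genes the median was -0.0093.

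Genes that beta-catenin and TCF factors induce in many tissues were split, 20 of 37 higher and 17 lower in 21-day-old cultures, with a median difference of 0.080. With the replicate block 8 of the 37 had an unadjusted p under 0.05 in limma, 4 higher and 4 lower, against 7.73% of all genes. In 15 of the 37 the difference had 1 sign in all 3 pairs, against 25.2% of all genes, 4 of them higher and 11 lower. Abcb1a, a drug efflux pump, was at 4.43, 4.30 and 4.86 in 21-day-old cultures and at 5.48, 4.68 and 5.38 in 9-day-old cultures. Fgf18, a growth factor gene, was at 5.42, 4.78 and 5.54 in 21-day-old cultures and at 4.60, 4.35 and 4.92 in 9-day-old cultures. Both overlapped between the ages while keeping 1 sign in all pairs, and they differed by -0.65 ± 0.26 and 0.62 ± 0.24 (SE). Ccn4, a matricellular protein gene, followed with -0.48 ± 0.55. Myc, a classic target, differed by -0.046 ± 0.13, and Ccnd1, which encodes cyclin D1, by 0.37 ± 0.64. Notum, Nkd1, Rnf43 and Bambi belong to this list and to another of the 6.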

How the data were processed

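Total RNA of 6 cultures was hybridised as biotin-labelled cDNA to Affymetrix arrays, and the authors used RMA to make the deposited log2 values, as stated per the submitters' processing notes. RMA corrects background, normalizes by quantiles and summarises probes. Which version and settings they used is not given in the sources used here. Binding by array is the recorded type of the series, whereas the labels describe expression, and the values were treated as such. Of 29214 probe sets, 15310 have 1 gene symbol in the platform annotation. For a gene with several the probe set of highest mean was used, which left 14506 genes. All 48 Wnt genes were found by Entrez number in RefSeq (GRCr8).

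The ages were compared with limma 3.58.1 in R 4.3.3 (lmFit, eBayes), as 21-day-old minus 9-day-old, over all genes without covariates or filter, with Benjamini-Hochberg adjustment. The code of the fit was run on simulated data, with arrays drawn independently and planted differences larger than that of any Wnt gene. Those data lack the shared deviations of arrays of the same number. That run thus bears on the code and not on the power for the Wnt genes. Groups and replicate numbers come from the titles. Deviations from the age means correlated at 0.439, 0.549 and 0.673 between arrays of the same number, all above 0.1. Between arrays of unlike number r ran from -0.552 to 0.165. The highest of these, 21-day-old replicate 2 against 9-day-old replicate 1, also lay above 0.1, so that limit alone does not establish pairs. Deviations from a shared mean depend on each other, and so do these correlations. Arrays of like number were handled as pairs because their correlations were the highest, but the titles do not say what the numbers stand for. SEs, intervals and p-values come from the fit without the block unless the block is named. Alternatives were the block, filters on level, scalings, the mean over probe sets, variance models, array weights and leaving out arrays. No scan date or slide was used here, and batches were not tested. The number of arrays limits the precision.

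The genes and lists were chosen with earlier results of these data known. Array values are given for Wnt genes without overlap, with an unadjusted p under 0.05 or a difference of at least 0.5, for set pathway genes, and for others after their values were seen. The other lists are named by their 3 largest differences, and the 6 pathway lists also by their genes without overlap. Myc and Ccnd1 were added after their values were seen. Plots were made in Python 3.11.15 and matplotlib 3.10.9.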

Additional observations from a re-analysis of the deposited data

How the results depend on the processing

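For the 15 Wnt genes given by rule with array values, 150 differences were recomputed under the 10 alternatives that can change them (scalings, array weights and arrays left out), and 136 kept their sign while 14 turned. None of the 15 passed the threshold under any of the 16 alternatives. Axin1 turned to 0.038 after quantile normalization and to 0.015 without both arrays numbered 3. Leaving out 1 array turned 6 genes, with ranges from -0.044 to 0.015 for Axin1, -0.11 to 0.053 for Lef1, -0.19 to 0.33 for Lgr4, -0.0040 to 0.21 for Lgr5, -0.40 to 0.033 for Lrp6 and -0.24 to 0.11 for Wnt4. The count of Wnt genes called was 0 under every alternative run. With the replicate block 8 Wnt genes had an unadjusted p under 0.05 in limma, against 7.73% of all genes. In the fits without the block that left out 1 array, 2 to 4 did, against 2.10% to 4.33% of all genes. The count of Wnt genes was lowest without 21-day-old replicate 1 or 9-day-old replicate 1. The count without overlap between the ages was 8 to 11 without 1 array, against 12.2% to 16.4% of all genes, and 16 without both arrays numbered 3, where fewer arrays make overlap rarer. That compares with 24.5% of all genes without those 2 arrays. When the test was limited to the 7253 genes with the highest mean, 6 of the 22 remaining Wnt genes were higher at 21 days, against 36.8% of all genes kept, with or without the block. With that filter and the block, 5 genes passed an adjusted p under 0.05, Stmn2, Hpx, Gpx3, Gsta4 and Hsd11b1, none of them a Wnt gene. The count with 1 sign in 3 pairs was not computed where an array was left out, since fewer pairs remain. Signals over background are unknown, so for the weak signals a small difference does not show equal expression.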

Other observations

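In the rat genome (RefSeq, GRCr8) 4 pairs of the measured Wnt ligands are next to each other among protein-coding genes. The age differences within these pairs were -0.023 for Wnt6 and 0.15 for Wnt10a, 0.00046 for Wnt9b and -0.085 for Wnt3, 0.062 for Wnt3a and 0.0034 for Wnt9a, and -0.088 for Wnt10b and 0.058 for Wnt1 (log2, 21-day-old minus 9-day-old). None of these 8 genes had an unadjusted p under 0.05 in limma. The promoters of the 32 Wnt genes in the RefSeq table had a median of 63.6% G and C in the 250 bases before the start, against 51.2% over all promoters of the table.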
